A study of Rattus norvegicus with 241 samples.

Results

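The glucocorticoid receptor NR3C1 and 7 genes of the glucocorticoid response were followed through all bulk and single-cell expression tables of a rat mammary gland study of a TGFβ receptor inhibitor. The members were taken by symbol, ignoring case, and were 8 of the 21707 genes listed in the 2 kinds of table. The 8 members were NR3C1, HSD11B1, FKBP5, TSC22D3, ZBTB16, SGK1, KLF9 and KLF15. All 8 were in bulk tables and 7 were in the single-cell tables, where NR3C1 was not analysed here. KLF15 was not analysed here in the leukocytes of tumors.

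Glucocorticoids are adrenal steroids that circulate with a daily rhythm and rise further under stress. They cross the membrane, bind the receptor NR3C1 in the cytoplasm and send it to the nucleus, where it raises or lowers transcription of its targets. HSD11B1 regenerates the active hormone from its inactive ketone inside cells. FKBP5 is a co-chaperone that is induced by the receptor and lowers its affinity for hormone, and so closes a feedback loop. TSC22D3, also called GILZ, is an anti-inflammatory leucine zipper protein, ZBTB16 (PLZF) is a zinc finger transcription factor, SGK1 is a kinase that regulates ion transport and survival, and KLF9 and KLF15 are Krüppel-like transcription factors. In the mammary gland the hormone is best known for its part in milk protein synthesis and in the survival of secretory epithelium.

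All rats were female and, except for the parous groups, virgin. TGFBRi was LY2157299 (galunisertib), a small molecule that inhibits the kinase of TGFBR1, given at 75 mg/kg by gavage 2 times a day for 10 days. Vehicle rats received the carrier in the same way. Inbred ACI rats began dosing at 35 days of age and were analysed on day 0, 7 or 14 after the last dose, with 3 rats per arm and day. Outbred Sprague Dawley (SD) rats began at 24 days of age and were analysed on day 0, with 4 rats per arm. The labels call 2 of the 4 treated SD rats of the bulk samples weak responders and 2 strong responders, and these 4 were kept as 1 group. Adult ACI rats, 18 to 24 weeks old, were virgin or parous and had 4 rats per arm, except for 2 to 4 rats in the leukocyte samples. In the carcinogen experiment SD rats began dosing at 21 days of age and then received NMU (N-nitroso-N-methylurea, 50 mg/kg), and the glands, taken 87 days after NMU, came from 3 tumor-bearing vehicle rats, 3 tumor-free TGFBRi rats and 3 tumor-bearing TGFBRi rats. In the estrogen experiment dosing of ACI rats started at 38 days of age and went on for 21 days, and some rats received a 37 mg estradiol (E2) implant at 60 days of age, the others an implant filled with air. Their glands were taken at the end of the tumor experiment, months after dosing. Its groups were tumor-free rats without E2 (4 vehicle, 3 TGFBRi), 4 tumor-bearing vehicle rats with E2, 4 tumor-free TGFBRi rats with E2 and 2 tumor-bearing TGFBRi rats with E2, so that in vehicle rats E2 and tumor status cannot be told apart. NMU-induced tumors were split into EPCAM+ and CD45+ cells, with 3 tumors per arm. Single cells came from glands of day 0, as sorted epithelium of ACI rats (3 rats per arm), sorted epithelium of SD rats (6 TGFBRi, 3 vehicle) and whole SD glands (6 TGFBRi, 3 vehicle). The labels did not tell whether litters or cages were shared, so p-values measure the spread between these rats.

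The bulk samples were 202, from 68 rats, with 4194912 to 52314784 reads each, and the fractions were basal, luminal and CD45+ cells sorted by flow cytometry. KRT5, a basal keratin, had a median of 1240 reads-per-million (RPM) in basal, 3.66 in luminal and 18.5 in CD45+ cells of young ACI rats, and PTPRC, which encodes CD45, had 2.70, 1.90 and 418 RPM. COL1A1, a fibroblast collagen, was not absent from the sorts and had 8286 RPM in young ACI CD45+ cells and 15359 RPM in young SD basal cells. The 39 single-cell libraries held 160052 cells from 24 rats, with a median of 2820 to 15941 UMIs per cell. In the sorted ACI, sorted SD and whole-gland sets 35, 216 and 6127 barcodes occurred in more than 1 library. In bulk cells, a lower share of a cell type and less RNA per cell cannot be told apart.

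Upstream sequence was looked at for 5 members, as windows of 250 bases before RefSeq transcription starts in GRCr8. The 2 shown belong to the feedback gene FKBP5 and to TSC22D3, whose luminal level fell after day 0. The capitals mark TATAAA in the window of a Tsc22d3 start (chrX:109010035-109010284, minus strand) and GGGCGG, the binding motif of the Sp1 family, in the window of Fkbp5 (chr20:6543556-6543805, minus strand).
Tsc22d3: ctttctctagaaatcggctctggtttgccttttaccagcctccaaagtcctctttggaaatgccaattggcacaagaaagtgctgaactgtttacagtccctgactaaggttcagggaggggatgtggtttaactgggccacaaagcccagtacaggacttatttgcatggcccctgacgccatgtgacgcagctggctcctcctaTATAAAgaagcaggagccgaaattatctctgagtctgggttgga
Fkbp5: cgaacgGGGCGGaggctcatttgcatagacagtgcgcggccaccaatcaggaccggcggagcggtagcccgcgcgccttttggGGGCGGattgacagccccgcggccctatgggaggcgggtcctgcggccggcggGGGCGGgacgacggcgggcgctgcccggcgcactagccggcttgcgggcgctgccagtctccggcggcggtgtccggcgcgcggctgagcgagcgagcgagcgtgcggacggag
The palindromic receptor motif GNACANNNTGTNC was searched on both strands and was in 0 of the 9 member windows, against 0.373% of all 33469 windows of the same length. TATAAA was in 3 of the 9 windows (12.9% of all) and GGGCGG in 5 (30.5% of all), each on either strand. These are matches of letters in a short window. The motifs do not overlap each other. Zbtb16 and Hsd11b1 had no window in the set of windows used, and the windows of Nr3c1 were not used here.

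The members differed in where they were read. Over all gland samples, and in RPM, the median level of NR3C1 was 100 in CD45+ (65 rats), 81.4 in basal (51 rats) and 55.9 in luminal cells (68 rats). TSC22D3 stood out by its leukocyte level, at 844 RPM in CD45+ cells against 94.5 in basal and 130 in luminal cells. HSD11B1 had 44.2 RPM in luminal, 13.4 in CD45+ and 10.3 in basal cells, and SGK1 had 588 in basal, 346 in CD45+ and 285 in luminal cells. The fractions were scaled apart, and the E2 experiment had luminal and CD45+ samples only, so that the rats behind the medians differ. These levels are a description and have no test.

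Basal and luminal cells of the vehicle rats were scaled together in 5 sets (ACI at day 0, 7 and 14, SD at day 0, and NMU-treated SD) and could be tested. The members passed in 16 of 40 tests, 10 higher and 6 lower in basal cells, against 24.2% of all gene tests. In ACI rats of day 0, where 20.5% of genes were called, HSD11B1 had normalized read counts of 61.9, 75.1 and 100 in the basal fraction and 734, 779 and 832 in the luminal fraction. Every luminal sample was above every basal sample. The log2 difference (basal minus luminal, of the normalized read count plus 1) was −3.31 (limma, adjusted p = 7.24e-05), and it was −4.55 at day 7 (adjusted p = 8.31e-07 by limma; 14.7% of genes), −2.94 at day 14 (adjusted p = 0.000338 by limma; 19.3% of genes) and −2.30 in SD rats (adjusted p = 4.12e-06 by limma; 40.9% of genes). In NMU-treated rats HSD11B1 was at 403, 424 and 553 in basal and at 248, 934 and 981 in luminal cells, and these groups overlapped. There the adjusted p was 0.481 by limma.

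SGK1 had the opposite distribution and was higher in basal cells in all 5 sets. At day 0 its normalized counts were 13646, 14086 and 14585 in basal and 4465, 4806 and 4982 in luminal cells of ACI rats. In NMU-treated rats, where 27.3% of genes were called, they were 5712, 7061 and 10037 against 937, 1178 and 1385. The log2 differences were 1.57 at day 0, 0.93 at day 7, 1.26 at day 14, 1.46 in SD rats and 2.68 in NMU-treated rats (limma, adjusted p of 0.0282 or less). Without any 1 of the 3 rats, the day 7 difference missed the threshold, as it did with edgeR on the recovered reads (adjusted p = 0.0593) and with only the groups compared (adjusted p = 0.316).

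The receptor NR3C1 was higher in basal cells in 2 of the 5 sets. It counted 2061, 2366 and 2891 in basal and 1210, 1423 and 1519 in luminal cells of ACI rats at day 0, without overlap (log2 difference 0.81, limma, adjusted p = 0.0301, lost without any 1 of the 3 rats). In SD rats it counted 1046, 1247, 1344 and 1347 in basal and 145, 556, 625.1 and 744 in luminal cells (1.49, limma, adjusted p = 0.00311, lost without 1 of the 4 rats). At day 7 and day 14 its log2 difference was 0.72 and 0.66, without overlap (limma, adjusted p of 0.073 and 0.0877; both called by DESeq2). Basal and luminal cells came from the same rats, and a fit with the rat as a replicate block also called NR3C1 at day 7 (adjusted p = 0.00465) and day 14 (adjusted p = 0.00675), KLF9 at day 7, lower in basal cells (−0.64, adjusted p = 0.0275), and ZBTB16 at day 7, lower in basal cells (−1.83, adjusted p = 0.0302), by limma. In NMU-treated rats NR3C1 lay the other way, at 273, 377 and 447 in basal and 402, 725 and 1541 in luminal cells, with overlap (−1.09, limma, adjusted p = 0.0777; DESeq2 adjusted p = 0.0186). KLF15 was higher in SD basal cells, at 59.7, 105.97, 172 and 176 against 2.28, 19.4, 20.9 and 34.5 in luminal cells (2.97, limma, adjusted p = 0.0101, lost without 1 of the 4 rats). It was also higher in NMU-treated basal cells, at 16.4, 48.95 and 86.4 against 0, 4.00 and 5.19 (3.75, limma, adjusted p = 0.00824, lost without 2 of the 3 rats). The remaining calls were FKBP5, higher in SD basal cells (1.94, limma, adjusted p = 0.000555), TSC22D3, lower in basal cells at day 0 (−0.90, limma, adjusted p = 0.0271), and ZBTB16, lower in basal cells at day 14 (−2.90, limma, adjusted p = 0.0249). The TSC22D3 and ZBTB16 calls were lost without any 1 of the 3 rats. Fibroblast markers were higher in the same basal sorts. In SD rats they summed to 34491 to 53523 RPM in basal and 259.6 to 1461 RPM in luminal cells, with 6 of 6 called by limma, against 1 of 6 in each ACI set and 2 of 6 in NMU-treated rats. In the whole gland fibroblast-like cells had more FKBP5 (median 15.4 against 7.21 UMI CPM in basal-like cells) and KLF15 (4.77 against 0.527). Rats of both arms are in these medians. The part of fibroblasts in the basal calls was not tested.

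**Figure D1:**
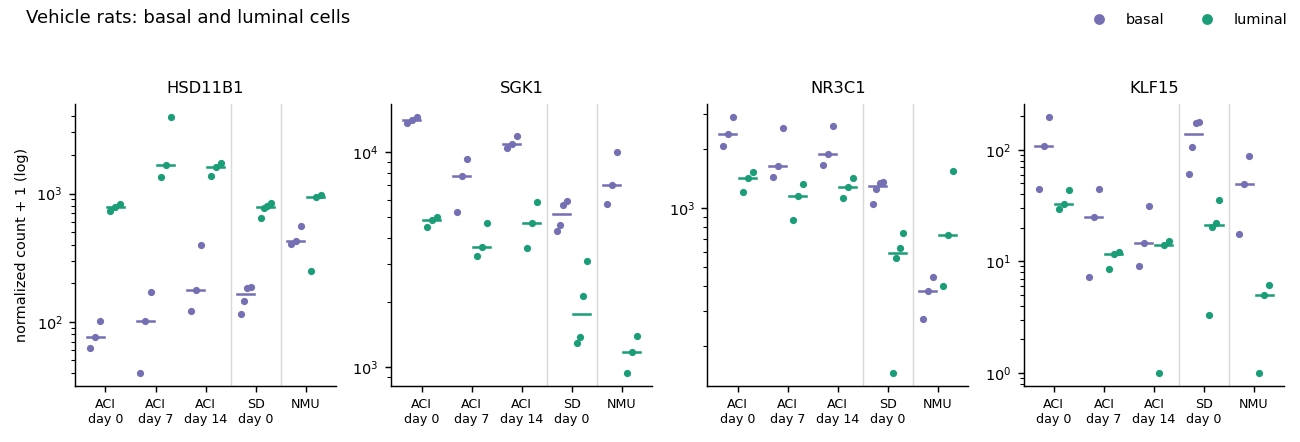
Normalized read count plus 1 (log axis) of HSD11B1, SGK1, NR3C1 and KLF15 in basal and luminal cells of vehicle rats, 1 point per rat and a line at the median, for ACI rats at day 0, 7 and 14, SD rats at day 0 and NMU-treated SD rats. HSD11B1 lies higher in luminal cells except in the NMU set, where the groups overlap, and SGK1 lies higher in basal cells in every set.

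Single cells placed these levels in finer classes. The classes were named from marker genes, were built without the members, and are given as X-like. In sorted epithelium HSD11B1 was read mainly in luminal progenitor-like cells, with a median over rats of 58.4 UMI counts-per-million (CPM) in ACI and 61.7 in SD rats, against 1.61 and 0.807 in mature luminal-like cells and 3.01 and 6.10 in basal-like cells. Among the 12 named classes of the whole gland, fibroblast-like cells (34.7) and luminal progenitor-like cells (33.1) had the highest medians of HSD11B1 over the 9 rats. SGK1 was higher in basal-like cells (139 in ACI, 103.2 in SD rats) than in luminal progenitor-like cells (28.7 and 26.4), the order seen in the bulk sorts. For KLF15 and FKBP5 the order in sorted SD cells depended on the luminal class. Their medians were 1.03 and 9.72 in basal-like, 1.86 and 14.8 in luminal progenitor-like, and 0.179 and 6.57 in mature luminal-like cells. The bulk luminal sort was not split into these classes. The bulk SD calls were of vehicle rats, while these medians are over rats of both arms.

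The targets differed in where they were highest among the 12 named classes of the whole gland. The 17624 whole-gland cells of unnamed clusters were left out of this ranking. TSC22D3 was highest in NK cell-like cells (median 303 CPM) and was at 175 in T cell-like and 137 in B cell-like cells, against 30.1 in basal-like cells. FKBP5 was also highest in NK cell-like cells (93.9), followed by T cell-like (53.4), lymphatic endothelial-like (48.8) and endothelial-like cells (42.1), and it was at 3.56 in mature luminal-like cells. ZBTB16 was near 0 in B cell-like (0.177), T cell-like (0.7998) and basal-like cells (0.9701) and was at 29.1 in vascular smooth muscle or pericyte-like, 22.6 in fibroblast-like and 21.9 in endothelial-like cells. KLF9 was highest in fibroblast-like (377) and vascular smooth muscle or pericyte-like cells (351) and lowest of the 12 classes in NK cell-like cells (38.3). SGK1 was highest in lymphatic endothelial-like cells (457), and KLF15 was low throughout, with 9.04 in Schwann cell-like and 4.77 in fibroblast-like cells. These medians are over 9 rats of both arms, 6 TGFBRi and 3 vehicle. In vehicle rats ZBTB16 was lower in fibroblast-like and endothelial-like cells, as given below, and other members also differed between the arms. Ranges over rats overlapped between many neighbouring classes, and no test was made.

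**Figure D2:**
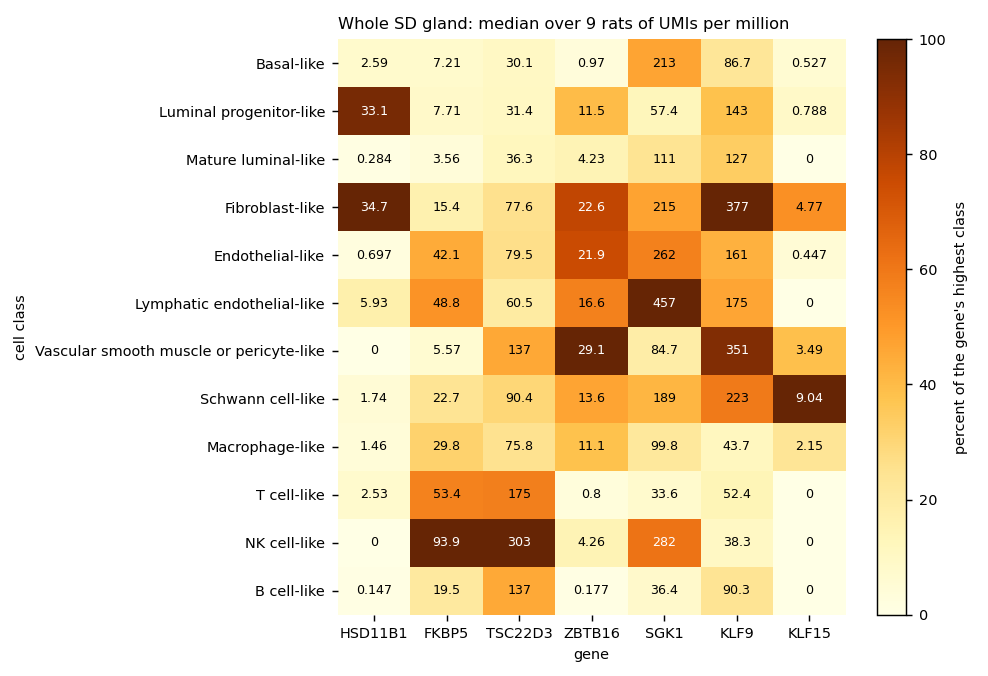
Level of 7 members in 12 cell classes of the whole SD gland on day 0. The number in each cell is the median UMI CPM over 9 rats, TGFBRi and vehicle together. The color gives the percent of the gene's highest class. TSC22D3 and FKBP5 peak in NK cell-like cells, HSD11B1 in fibroblast-like and luminal progenitor-like cells, and SGK1 in lymphatic endothelial-like cells.

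The days after dosing were compared in vehicle ACI rats. Day 0 followed directly on 10 days of gavage, and rats of day 7 and 14 were undisturbed by gavage since. Day cannot be told apart from age, time since gavage or day of processing. The members passed in 6 of 48 tests, all 6 lower than on day 0, against 0.239% of all gene tests. An unadjusted p under 0.05 was found in 25 of the 48, and its share over all genes is not given here. The 6 calls belonged to 2 genes, TSC22D3 and ZBTB16.

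In luminal cells TSC22D3 had normalized counts of 4437, 4551 and 5107 on day 0, 609, 700 and 864 on day 7, and 639, 720 and 1260 on day 14. The day 0 rats were all far above the later rats, and days 7 and 14 overlapped. The log2 change was −2.71 ± 0.28 (SE) at day 7 (limma, adjusted p = 0.000511; 0.685% of genes called) and −2.49 ± 0.28 at day 14 (limma, adjusted p = 0.000543; 0.389% of genes called), and each held without any 1 of the 6 rats. In basal cells TSC22D3 had 2110, 2469 and 3055 on day 0, 505, 658 and 888 on day 7, and 751, 806 and 1239 on day 14. These groups did not overlap with day 0 either. The change at day 7 was −1.92 ± 0.34 (limma, adjusted p = 0.0274; 0.192% of genes called) but was lost without 5 of the 6 rats (adjusted p up to 0.206) and with edgeR on the recovered reads (adjusted p = 0.0543) or with only these 2 groups in the fit (adjusted p = 0.149), and at day 14 it was −1.47 (limma, adjusted p = 0.128; 0.0384% of genes called).

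ZBTB16 was low in vehicle epithelium of days 7 and 14. In luminal cells it had 416, 786 and 907 normalized counts on day 0, 7.93, 22.3 and 28.8 on day 7, and 27.1, 30.5 and 53.2 on day 14. Every day 0 rat was above every later rat. The log2 change was −5.19 ± 0.75 at day 7 (limma, adjusted p = 0.00564, at most 0.0411 without 1 rat) and −4.20 ± 0.75 at day 14 (limma, adjusted p = 0.0217, 0.0669 to 0.142 without 1 rat). In basal cells it had 174, 372 and 521 on day 0, 0, 10.52 and 11.01 on day 7, and 1.15, 4.95 and 7.90 on day 14. Again no rat of the later days reached the day 0 range. The change was −5.97 ± 1.03 at day 7 (limma, adjusted p = 0.0249, lost without 5 of the 6 rats with values of 0.0207 to 0.169, with edgeR at 0.0544 and with only these 2 groups in the fit at 0.133) and −6.06 at day 14 (limma, adjusted p = 0.0508).

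**Figure D3:**
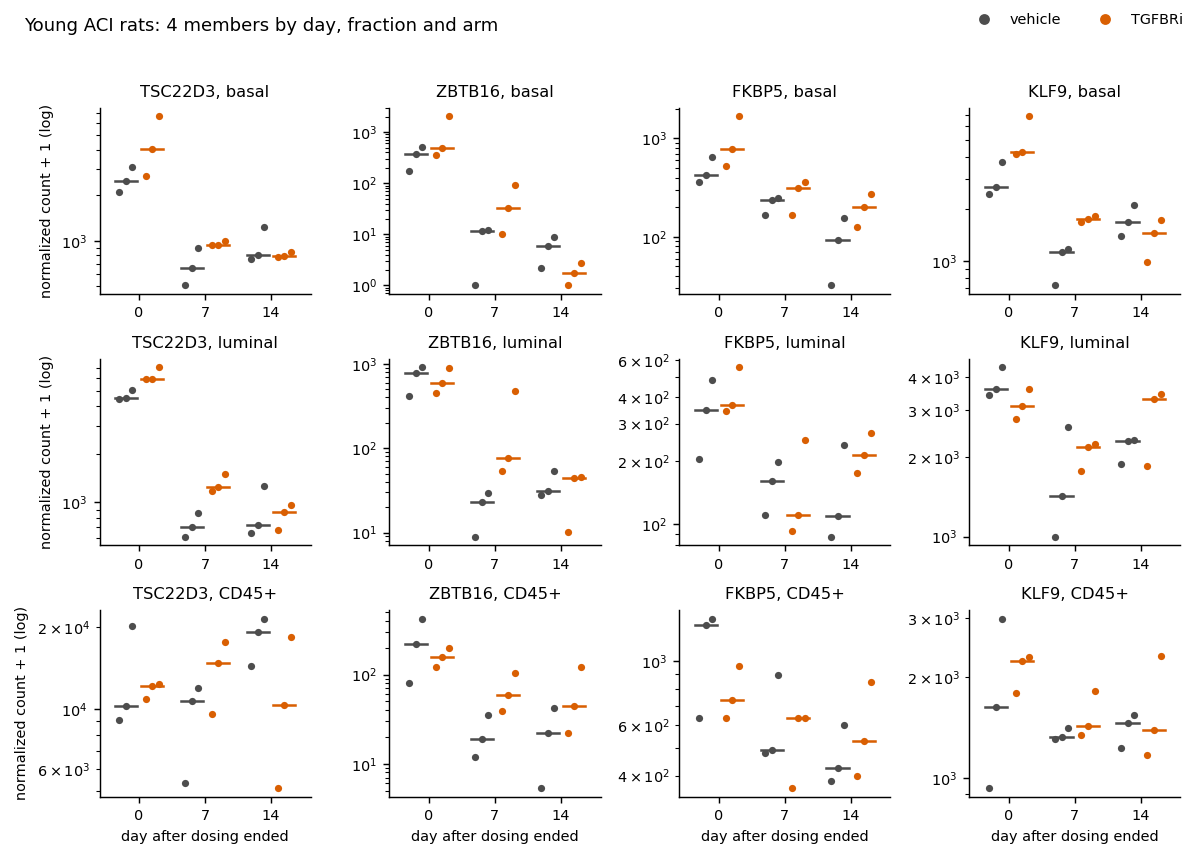
Normalized read count plus 1 (log axis) of TSC22D3, ZBTB16, FKBP5 and KLF9 by day after the last dose (0, 7 or 14) in basal, luminal and CD45+ cells of young ACI rats, vehicle in grey and TGFBRi in orange, 1 point per rat and a line at the median. TSC22D3 and ZBTB16 of basal and luminal cells are highest on day 0 in both arms.

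The other members had values that missed the threshold by limma. KLF9 in basal cells was at 2451, 2689 and 3713 on day 0 and at 727, 1130 and 1182 on day 7, without overlap (log2 difference −1.55, limma, adjusted p = 0.056). In luminal cells it was at 3428, 3607 and 4365 against 997, 1425 and 2597 (−1.29, limma, adjusted p = 0.0823). FKBP5 in basal cells was at 357, 427 and 648 on day 0 and at 31.1, 91.2 and 156 on day 14 (−2.58, limma, adjusted p = 0.101). SGK1 in basal cells had 13646, 14086 and 14585 on day 0 and 5243, 7766 and 9312 on day 7, which did not overlap (−0.96, limma, adjusted p = 0.21). HSD11B1 in luminal cells lay in the opposite direction, at 734, 779 and 832 on day 0 and 1343, 1681 and 3957 on day 7 (1.58 by DESeq2, adjusted p = 0.034). DESeq2 on the recovered reads also called KLF9 at day 7 in basal (adjusted p = 0.000286) and luminal cells (adjusted p = 0.0109), and FKBP5 at day 14 in basal cells (adjusted p = 0.00265). In basal cells at day 14 DESeq2 further called KLF15 (−2.69, adjusted p = 0.0184), TSC22D3 (−1.40, adjusted p = 0.00827) and ZBTB16 (−6.20, adjusted p = 5.19e-07), all lower than on day 0.

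In CD45+ cells no member passed by limma. TSC22D3 had 9135, 10246 and 20144 normalized counts on day 0, 5313, 10696 and 11945 on day 7, and 14445, 19146 and 21504 on day 14, and the groups overlapped. ZBTB16 had 78.96, 221 and 424 on day 0 and 4.33, 21.1 and 41.4 on day 14, without overlap (log2 difference −3.52, limma, adjusted p = 0.0806; 0.129% of genes called). At day 7, where 0 genes were called in CD45+ cells by limma (861 at an unadjusted p under 0.05, 40 called by DESeq2), ZBTB16 had 10.9, 17.8 and 33.8. DESeq2 on the recovered reads called ZBTB16 lower in CD45+ cells at day 7 (−3.53, adjusted p = 0.0091) and day 14 (−3.44, adjusted p = 0.00235), and FKBP5 at day 14 (−1.26, adjusted p = 0.0451). Day 14 had higher B cell marker sums than day 0, and the T cell marker sums of the 2 days overlapped. The 3 B cell markers summed to 14.4 to 819 RPM on day 0 and to 1267 to 2018 RPM on day 14, and the 5 T cell markers to 125 to 2516 and 1414 to 2180 RPM, with list medians of 4.07 and 2.28 on the log2 scale and no marker called by limma. Their part in the ZBTB16 values was not tested. Over the 8 members the median log2 difference of day 7 from day 0 was −0.38 in CD45+ cells (all genes 0.08), −1.33 in basal cells (all genes −0.03) and −1.20 in luminal cells (all genes 0.20).

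Other genes moved on the same days. In luminal cells at day 7, 3 of the 27 other receptor targets tested passed, 2 of them lower (TXNIP and RASD1) and 1 higher (MAOA), with a list median of −0.54. Clock genes, which run the daily rhythm, were lower for 4 of 10, with log2 changes of −2.51 for PER2, −2.67 for PER3, −2.66 for DBP and −2.38 for TEF (limma). Immediate early genes, which respond within minutes to stimulation and to tissue handling, were lower for 2 of 10, with −1.98 for FOSB and −1.84 for EGR1 (limma). At day 14, 2 clock genes, 3 immediate early genes and 0 of the 27 other receptor targets passed (limma). In basal cells at day 7 these lists had no call by limma and medians of −0.32 for other receptor targets, −0.98 for clock genes and −0.92 for immediate early genes, and the lists of luminal, fibroblast, adipocyte, endothelial and leukocyte markers had no call either. The part of these in the fall of TSC22D3 and ZBTB16 was not tested.

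TGFBRi rats of the same days, added as an alternative after the vehicle values had been seen, had 13 calls in 48 tests, 12 lower and 1 higher than on day 0, against 7.68% of all gene tests. In luminal cells TSC22D3 fell from 5935, 5950 and 7034 on day 0 to 1185, 1258 and 1506 on day 7 (log2 change −2.26, limma, adjusted p = 0.00148; 0.369% of genes called) and to 668, 868 and 958 on day 14 (−2.93, limma, adjusted p = 0.000157; 3.95% of genes called). HSD11B1 was the exception and rose in luminal cells from 257, 355 and 424 on day 0 to 814, 974 and 2422 on day 14 (1.87, limma, adjusted p = 0.048). In basal cells 3 members were lower at day 7 (TSC22D3, ZBTB16 and KLF9), where 1.56% of genes were called, and 6 at day 14, where 32% were called. At day 14 KLF15 of basal cells fell from 260, 306 and 536 to 0, 1.71 and 2.602 (−7.36, limma, adjusted p = 9.74e-05), and ZBTB16 from 352, 498 and 2066 to 0, 0.734 and 1.71 (−8.74, limma, adjusted p = 0.000201). Adipocyte markers were lower for 4 of 6 in basal cells at day 14, with a summed level of 194 to 534 RPM on day 0 and 69.2 to 194 RPM on day 14. The T cell marker LCK was lower there too, and T and B cell lists had medians of −0.78 and −1.52 at day 14 and −1.79 and −1.94 at day 7 (all genes −0.58 and −0.38). T cell markers summed to 11.7 to 25.6 RPM on day 0, 6.90 to 12.6 on day 7 and 4.04 to 7.75 on day 14. The part of these cells was not tested. In CD45+ cells no member passed by limma at day 7 (1.5% of genes called) or day 14 (5.94% of genes called), with 2 of 16 tests at an unadjusted p under 0.05 and no call by edgeR or DESeq2 on the recovered reads. The treatment effect did not differ between days for any member at the threshold (0 of 48 interaction tests by limma, 3 with an unadjusted p under 0.05 and 1 called by DESeq2, KLF15 in basal cells at day 14, against 0.0351% of all gene tests and, where any gene passed, 0.00639% in basal and 0.00659% in luminal cells at day 14 and 0.0135% and 0.19% in CD45+ cells at day 7 and 14).

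The treatment itself, TGFBRi against vehicle, was tested in 32 bulk comparisons. The members passed in 2 of 255 tests, both higher with TGFBRi, against 0.588% of all gene tests. An unadjusted p under 0.05 was found in 48 of the 255, and 162 of the 255 differences were positive. The shares over all genes at these 2 marks are not given here, so that both counts are a description. The median over all genes was also above 0 in some comparisons. It was 0.298 in basal and 0.212 in luminal cells of young ACI rats on day 0.

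The first call was ZBTB16 in luminal cells of adult parous rats, where 0.0281% of genes were called. Its normalized counts were 54.6, 133, 142 and 244 in vehicle and 497, 704, 853 and 1120 in TGFBRi rats. The TGFBRi rats were all above the vehicle rats. The log2 change was 2.58 ± 0.41 (SE) (limma, adjusted p = 0.0312), and it was lost without 7 of the 8 rats in turn (adjusted p of 0.00512 to 0.129). The call was also lost under 2 of 7 alternatives of the processing (adjusted p up to 0.0861, limma). In virgin rats of the same age ZBTB16 was at 412, 436, 657 and 927 in vehicle and at 240, 402, 494 and 571 in TGFBRi rats, so that the vehicle parous rats were the lowest of the 4 groups. The difference of the treatment effect between parous and virgin rats was 3.09 on the log2 scale (limma, adjusted p = 0.693, unadjusted 4.87e-05).

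The second call was KLF15 in luminal cells of NMU-treated rats, where 0.948% of genes were called. It was at 0, 4.00 and 5.19 in tumor-bearing vehicle rats and at 44.1, 64.6 and 150 in tumor-free TGFBRi rats, without overlap (4.61 ± 1.10, limma, adjusted p = 0.0478, lost without 5 of the 6 rats with values of 0.00756 to 0.287, and with pseudocount 5, another filter or no filter on low values, at 0.0516 to 0.0574). Tumor-bearing TGFBRi rats had 10.7, 20.7 and 66.4, also above the vehicle rats (3.04, limma, adjusted p = 0.173; DESeq2, adjusted p = 0.038). Treatment and tumor status cannot be told apart in the tumor-free comparison. ZBTB16 in these cells was at 1.73, 6.47 and 32.02 in vehicle, 40.5, 44.1 and 61.8 in tumor-free TGFBRi and 35.6, 72.2 and 104.1 in tumor-bearing TGFBRi rats, with adjusted p of 0.173 and 0.143 by limma.

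In basal cells of adult parous rats several members differed between the arms without passing the threshold. TSC22D3 was at 876, 1571, 1627 and 1726 in vehicle and at 5249, 5380, 5427 and 15852 in TGFBRi rats (log2 difference 2.32, limma, adjusted p = 0.121, unadjusted 2.71e-05). KLF15 was at 18.5, 26.2, 37.9 and 63.3 against 133, 305, 408 and 503 (3.16, limma, adjusted p = 0.0922). ZBTB16 was at 204, 353, 377 and 462 against 796, 1048, 1317 and 1769 (1.82, limma, adjusted p = 0.551). None of these 3 pairs of groups overlapped. FKBP5 was at 424, 496, 705 and 903 against 962, 1042, 1504 and 2966, also without overlap (1.26, limma, adjusted p = 0.737). The share of all genes without overlap in this comparison was not counted, so that the lack of overlap is a description. The member median was 1.16 against 0.04 over all genes, 0.00744% of genes were called, and 0 of 26 other receptor targets passed by limma, with a median of 0.50. DESeq2 on the recovered reads called KLF15, TSC22D3 and ZBTB16 there.

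In basal cells of adult virgin rats 8.73% of genes were called and no member was, by limma. SGK1 was at 10528, 13178, 17566 and 20680 in vehicle and at 20603, 34513, 38441 and 41352 in TGFBRi rats (1.12, limma, adjusted p = 0.0525), and the lowest TGFBRi rat lay within the vehicle range. KLF15 was at 44.9, 55.7, 60.02 and 123 against 139, 222, 241 and 276 (1.69, limma, adjusted p = 0.0555). HSD11B1 lay the other way, at 110, 208, 247 and 624 against 1.05, 66.8, 91 and 110 (−2.83, limma, adjusted p = 0.0667). DESeq2 on the recovered reads called these 3 members. In luminal cells of virgin rats KLF15 was at 0, 1.31, 1.76 and 48.6 in vehicle and at 64.9, 83.5, 95.8 and 132 in TGFBRi rats (4.45, limma, adjusted p = 0.547).

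**Figure D4:**
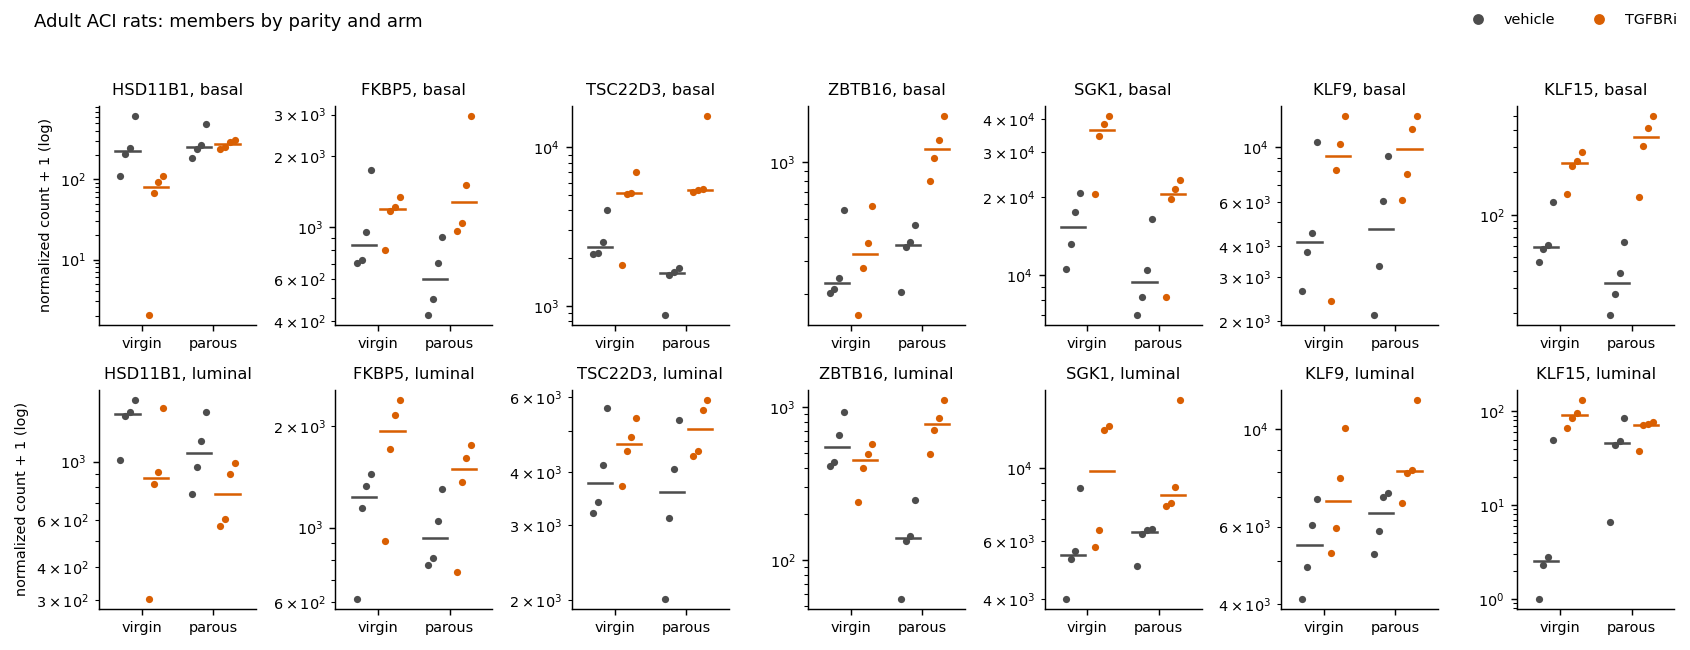
Normalized read count plus 1 (log axis) of 7 members in basal and luminal cells of adult virgin and parous ACI rats, vehicle in grey and TGFBRi in orange, 1 point per rat and a line at the median. In parous rats TSC22D3, ZBTB16, FKBP5 and KLF15 of basal cells and ZBTB16 of luminal cells show TGFBRi rats above all vehicle rats.

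In young rats no member passed for treatment by limma on any day or in either strain (0 of 96 tests, 11 at an unadjusted p under 0.05). The share over all genes at that mark is not given here, so that the 11 are a description. On the recovered reads edgeR called no member and DESeq2 called 1, ZBTB16 in luminal cells of day 7. On day 0 in basal cells of ACI rats, where 3.34% of genes were called, TSC22D3 was at 2110, 2469 and 3055 in vehicle and at 2664, 4026 and 6698 in TGFBRi rats, which overlapped. KLF15 was at 43.7, 107.6 and 196 against 260, 306 and 536 (log2 difference 1.83, limma, unadjusted p = 0.0316) and KLF9 at 2451, 2689 and 3713 against 4136, 4246 and 6876 (0.77, limma, unadjusted p = 0.0274), both without overlap. The member median was 0.85 against 0.30 over all genes. T cell markers in the same samples summed to 2.40 to 14.9 RPM in vehicle and 11.7 to 25.6 RPM in TGFBRi rats and B cell markers to 0 to 2.03 and 0.954 to 12.3 RPM, with list medians of 2.19 and 3.34 and no call by limma, and their part was not tested. HSD11B1 of luminal cells lay the other way on day 0, at 734, 779 and 832 in vehicle and 257, 355 and 424 in TGFBRi rats, without overlap (−1.20, limma, adjusted p = 0.193, unadjusted 0.0288). On day 0 1.01% of genes were called in luminal and 2.85% in CD45+ cells, and in basal cells of day 7 0.00639%. On day 7 in luminal cells ZBTB16 was at 7.93, 22.3 and 28.8 in vehicle and at 52.9, 75.9 and 469 in TGFBRi rats, without overlap (2.77, limma, adjusted p = 0.255). In SD luminal cells FKBP5 had a log2 difference of 1.00 ± 0.41 (limma, adjusted p = 1), and no gene at all was called in the 3 SD fractions by limma (494, 244 and 501 genes at an unadjusted p under 0.05 in basal, luminal and CD45+ cells, and 4, 1 and 1 genes called by DESeq2).

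Parous and virgin adults were also compared within each arm. The members passed in 2 of 48 tests, both higher in parous rats and both in basal cells of TGFBRi rats, against 1.97% of all gene tests and 12.1% of genes in that comparison. The median of all genes there was 0.24 by limma and 0.05 by DESeq2. ZBTB16 was at 154, 275, 374 and 583 in virgin and at 796, 1048, 1317 and 1769 in parous TGFBRi rats (1.93 ± 0.42, limma, adjusted p = 0.00827), and the call held without any 1 of the 8 rats. HSD11B1 was at 1.05, 66.8, 91 and 110 in virgin and at 238, 250, 296 and 310 in parous TGFBRi rats (2.98 ± 0.93, limma, adjusted p = 0.0449), and it was lost without 4 of the 8 (adjusted p up to 0.0978). The HSD11B1 call was also lost under 2 of 6 alternatives of the processing, edgeR among them (adjusted p up to 0.16 over the alternatives). DESeq2 called it with a log2 change of 2.02 (adjusted p = 0.0306). Of 26 other receptor targets 4 were higher (TXNIP, SLC10A6, PER1 and MT2A) and 0 lower, and of 10 clock genes 3 were higher. Of 6 adipocyte markers 1 (FABP4) was higher there, and its part in the member changes was not tested. In vehicle rats ZBTB16 of luminal cells was at 412, 436, 657 and 927 in virgin and at 54.6, 133, 142 and 244 in parous rats, without overlap (−2.18, limma, adjusted p = 0.115; called by DESeq2, −2.09, adjusted p = 0.000524). By limma the effect of treatment did not differ by parity for any member at the threshold (0 of 24 interaction tests). Over all genes 0.339% of such tests passed, and 1.04% in basal cells. Of the 24, 5 had an unadjusted p under 0.05, and the share over all genes at that mark is not given here. DESeq2 called 1, ZBTB16 in luminal cells (log2 difference 2.99, adjusted p = 0.0038).

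E2 was associated with 5 member calls in 32 tests, 4 higher and 1 lower with E2, against 2.98% of all gene tests, and all 5 were in TGFBRi rats, tumor-free with and without E2. In CD45+ cells, where 5.58% of genes were called, NR3C1 was at 4399, 5120 and 5618 without E2 and at 5962, 8326, 9397 and 11301 with E2 (log2 change 0.76 ± 0.22, limma, adjusted p = 0.0463). SGK1 was at 4926, 5331 and 6505 without and at 7832, 12186, 12935 and 13929 with E2 (1.05 ± 0.29, limma, adjusted p = 0.0413). HSD11B1 was at 48.5, 56.1 and 71.9 against 145, 151, 174 and 249 (1.58 ± 0.41, limma, adjusted p = 0.0356). KLF15 was at 0, 0 and 6.47 against 26.2, 43.7, 49.4 and 181 (4.88 ± 1.15, limma, adjusted p = 0.022). In these 4 genes every E2 rat was above every rat without E2. The first 3 calls were lost without 6 of the 7 rats in turn and KLF15 without 4 of the 7. Under 1 of 7 alternatives of the processing KLF15 was lost (edgeR, adjusted p = 0.0776), and NR3C1 under another (limma, adjusted p = 0.0504). DESeq2 on the recovered reads also called ZBTB16 higher with E2 in these CD45+ cells (1.63, adjusted p = 0.0137).

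The leukocyte makeup differed between these rats as well. Neutrophil markers summed to 16.3 to 29.2 RPM without E2 and to 89.8 to 228 RPM with E2, and 2 of 6 passed as higher (CSF3R and CXCR2, limma). T cell markers summed to 899 to 1409 RPM without and 1541 to 2220 RPM with E2, and LCK was higher by limma. The part of these cells in the member changes was not tested. In luminal cells KLF9 fell with E2, from 5790, 8135 and 10446 to 3504, 4192, 4298 and 4532 (−0.94 ± 0.26, limma, adjusted p = 0.0498; 4.58% of genes called). The call was lost without 6 of the 7 rats. It was also lost under 3 of 7 alternatives of the processing, edgeR among them (adjusted p up to 0.0633 over the alternatives). Vehicle rats had no member call by limma, edgeR or DESeq2 (3 of 16 tests at an unadjusted p under 0.05 by limma), with 1.48% of genes called in luminal and 0.282% in CD45+ cells. KLF15 in their CD45+ cells was at 0, 0, 0 and 20.1 without E2 and at 8.91, 15.2, 37.3 and 45.4 with E2 and tumor (3.43, limma, adjusted p = 0.193).

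In NMU-induced tumors no gene was called by limma or edgeR between the arms (278 genes at an unadjusted p under 0.05 by limma and 6 called by DESeq2 in EPCAM+ cells, 841 and 64 in CD45+ cells). No member was among those called. FKBP5 in EPCAM+ tumor cells was at 86.4, 201 and 270 in vehicle and at 397, 596 and 801 in TGFBRi tumors, without overlap (limma, unadjusted p = 0.00789, adjusted p = 1). KLF9 lay the other way, at 1699, 1776 and 5552 against 630, 652 and 979. HSD11B1 had a median of 382 RPM in the EPCAM+ tumor cells, between 107.6 and 719 over the 6 tumors.

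The treatment was also compared in single cells of day 0, with another model and threshold than in bulk. UMIs were summed per rat and class, and 40 of 119 member tests passed an adjusted p of 0.1, the cutoff used for single cells in the study, with 31 higher and 9 lower, against 24.2% of all gene tests. By the labels the 3 experiments did not share rats.

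In sorted ACI epithelium 13 of 20 member tests passed, 12 higher and 1 lower, where 30% of gene tests did. FKBP5, the feedback gene, rose in basal-like and luminal progenitor-like cells. In basal-like cells it was at 6.32, 8.03 and 8.82 CPM in vehicle and at 16.3, 27.6 and 30.7 in TGFBRi rats (log2 change 1.95, edgeR, adjusted p = 0.000733). In luminal progenitor-like cells it was at 9.36, 9.74 and 11.5 against 18.6, 22.4 and 34.4 (1.603, edgeR, adjusted p = 0.000249). In mature luminal-like cells it was at 0, 0.441 and 0.530 against 1.26, 1.84 and 1.95, on 36 UMIs in all (2.34, edgeR, adjusted p = 0.0143). Free RNA from other cells was not measured, and 36 UMIs at this level cannot be told apart from it. No TGFBRi rat overlapped with a vehicle rat in any of the 3 classes.

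ZBTB16 rose in all 3 classes. It was at 12.02, 12.6 and 23.2 CPM in vehicle and at 45.1, 62.9 and 76.04 in TGFBRi rats in basal-like cells (2.19, edgeR, adjusted p = 0.00825), and at 6.23, 8.82 and 11.2 against 23.6, 45.2 and 45.8 in mature luminal-like cells (2.35, edgeR, adjusted p = 0.00417), without overlap. In luminal progenitor-like cells the arms overlapped (0.97, edgeR, adjusted p = 0.00398). KLF9 rose in basal-like cells from 215, 235 and 240 to 260, 283 and 297 (0.51, edgeR, adjusted p = 0.00177) and in luminal progenitor-like cells (0.44, edgeR, adjusted p = 0.0119). KLF15 was the gene that fell, in basal-like cells (−0.87, edgeR, adjusted p = 0.0156), while in the bulk basal sorts of ACI rats on day 0 its difference was 1.83 in the opposite direction. This contrast between the experiments was not tested. HSD11B1 rose in luminal progenitor-like cells (0.51, edgeR, adjusted p = 0.0125), where the bulk luminal difference was −1.20, also not tested against each other. TSC22D3 rose in mature luminal-like cells (0.56, edgeR, adjusted p = 0.0184), and SGK1 in basal-like (0.37, edgeR, adjusted p = 0.0519) and mature luminal-like cells (0.56, edgeR, adjusted p = 0.0891). The arms overlapped in these 4. Leaving out 1 rat at a time, the SGK1 calls were lost 3 times of 6 in basal-like and 5 times of 6 in mature luminal-like cells. Their adjusted p by edgeR then reached 0.238 and 0.294. The call of KLF15 in basal-like cells was lost 1 time, and the other ACI calls held. Of 24 other receptor targets tested in basal-like cells 3 were higher and 4 lower, of 23 in luminal progenitor-like cells 6 and 4, and of 23 in mature luminal-like cells 5 and 3.

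In sorted SD epithelium 7 of 21 member tests passed, 3 higher and 4 lower, where 30.1% of gene tests did. KLF9 fell in basal-like cells, from 138, 197 and 259 CPM in vehicle rats to between 62.8 and 104.1 (median 94.2) in the 6 TGFBRi rats (−0.76, edgeR, adjusted p = 0.043), and in luminal progenitor-like cells from 233, 259 and 275 to between 70.1 and 168 (median 110; −0.75, edgeR, adjusted p = 0.07). SGK1 fell in basal-like cells from 176, 228 and 260 to between 71.5 and 140 (median 99.7; −0.69, edgeR, adjusted p = 0.0547). The arms did not overlap in these 3. In mature luminal-like cells ZBTB16 (1.88, edgeR, adjusted p = 0.0659) and TSC22D3 (1.03, edgeR, adjusted p = 0.0643) rose, with overlap of the arms. Leaving out 1 rat at a time, the calls of KLF9 in basal-like and luminal progenitor-like cells were lost 2 and 5 times of 9, that of SGK1 3 times, and those of ZBTB16 and TSC22D3 in mature luminal-like cells 3 and 5 times. The remaining calls were KLF15 in basal-like cells, lower on 95 UMIs (−1.33, edgeR, adjusted p = 0.0685, lost 5 times), and HSD11B1 in luminal progenitor-like cells, higher with overlap (0.57, edgeR, adjusted p = 0.0947, lost 7 times). Of 23 other receptor targets in SD basal-like cells 0 were higher and 5 lower. Several SD clusters came mostly from 1 library (98.8%, 95.3% and 91.4% of their cells), and the cluster led by CRIP1, SPARCL1, S100A4 and DES could not be fitted, as fewer than 2 vehicle rats had 10 of its cells.

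In whole SD glands 20 of 78 member tests passed, 16 higher and 4 lower, where 21.1% of gene tests did. ZBTB16 was higher in 7 of the 12 classes. In Schwann cell-like cells it was at 0, 1.52 and 2.26 CPM in vehicle and between 13.1 and 34.5 (median 20.6) in TGFBRi rats, on 48 UMIs (3.67, edgeR, adjusted p = 0.000481), which cannot be told apart from free RNA of other cells, since that was not measured. In fibroblast-like cells it was at 1.85, 5.22 and 11.5 against 18.0 to 47.6 (median 29.5; 1.98, edgeR, adjusted p = 0.0313), and in luminal progenitor-like cells at 0.457, 2.42 and 3.03 against 3.89 to 27.1 (median 16.7; 2.85, edgeR, adjusted p = 0.0237). The TGFBRi rats were above the vehicle rats in each of these classes. In endothelial-like cells it was at 0.772, 3.49 and 15.7 against 17.7 to 46.5 (median 32.9; 2.08, edgeR, adjusted p = 0.0676, lost without 5 of the 9 rats). Lymphatic endothelial-like cells (64 UMIs, with the same limit on free RNA) and vascular smooth muscle or pericyte-like cells were called with overlap of the arms. These 2 calls and that of fibroblast-like cells were each lost without 1 of the 9 rats (edgeR, adjusted p of 0.113, 0.104 and 0.117). In endothelial-like cells 1 of the 3 vehicle rats also stood apart for TSC22D3, at 94.3 against 21.0 and 23.9. In basal-like cells the ZBTB16 call (5.31, edgeR, adjusted p = 0.0711) had 1 TGFBRi rat at 31.8, against a median of 1.08. Without that rat the log2 change was 3.59 and the call held (edgeR, adjusted p = 0.0158), and it was lost without any 1 of the 3 vehicle rats (adjusted p of 0.113 to 0.194).

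The other members of the whole gland went by class. SGK1 rose in basal-like cells, from 84.3, 87.2 and 132 in vehicle to between 165 and 253 (median 230) in TGFBRi rats (1.17, edgeR, adjusted p = 0.00048), and fell in luminal progenitor-like cells, from 83.7, 84.6 and 136 to between 23.2 and 70.3 (median 41.2; −1.33, edgeR, adjusted p = 0.00785). Both calls held without any 1 of the 9 rats. FKBP5 fell in basal-like cells, from 10.7, 10.98 and 11.6 to between 4.61 and 8.85 (median 6.33; −0.78, edgeR, adjusted p = 0.00915), and KLF9 rose there, from 53.03, 61.1 and 64.5 to between 65.2 and 143 (median 106.9; 0.87, edgeR, adjusted p = 0.0111). TSC22D3 rose in lymphatic endothelial-like cells, from 17.6, 37.5 and 39.4 to between 44.9 and 100 (median 80.8; 1.12, edgeR, adjusted p = 0.0138), also in basal-like, mature luminal-like and fibroblast-like cells, and fell in B cell-like cells (−0.73, edgeR, adjusted p = 0.0631). The fibroblast-like and mature luminal-like calls were lost without 7 and 6 of the 9 rats, and that of SGK1 in B cell-like cells (−0.53, edgeR, adjusted p = 0.0948) without 7. SGK1 rose in lymphatic endothelial-like cells (0.58, edgeR, adjusted p = 0.026). This call was lost without 1 of the 9 rats, and without the 6% of cells with most UMIs (edgeR, adjusted p = 0.117). KLF15 was higher in basal-like cells on 50 UMIs (2.27, edgeR, adjusted p = 0.0598, lost without 3 of the 9) and in luminal progenitor-like cells (2.27, edgeR, adjusted p = 0.043, lost without 1 of the 9), with the same limit on free RNA. In NK cell-like, T cell-like and macrophage-like cells no member passed by edgeR or DESeq2 (2 of 18 tests at an unadjusted p under 0.05 by edgeR). Other receptor targets went both ways, with 10 higher and 3 lower of 24 in basal-like, 6 and 6 of 26 in fibroblast-like, and 0 and 9 of 23 in B cell-like cells.

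**Figure D5:**
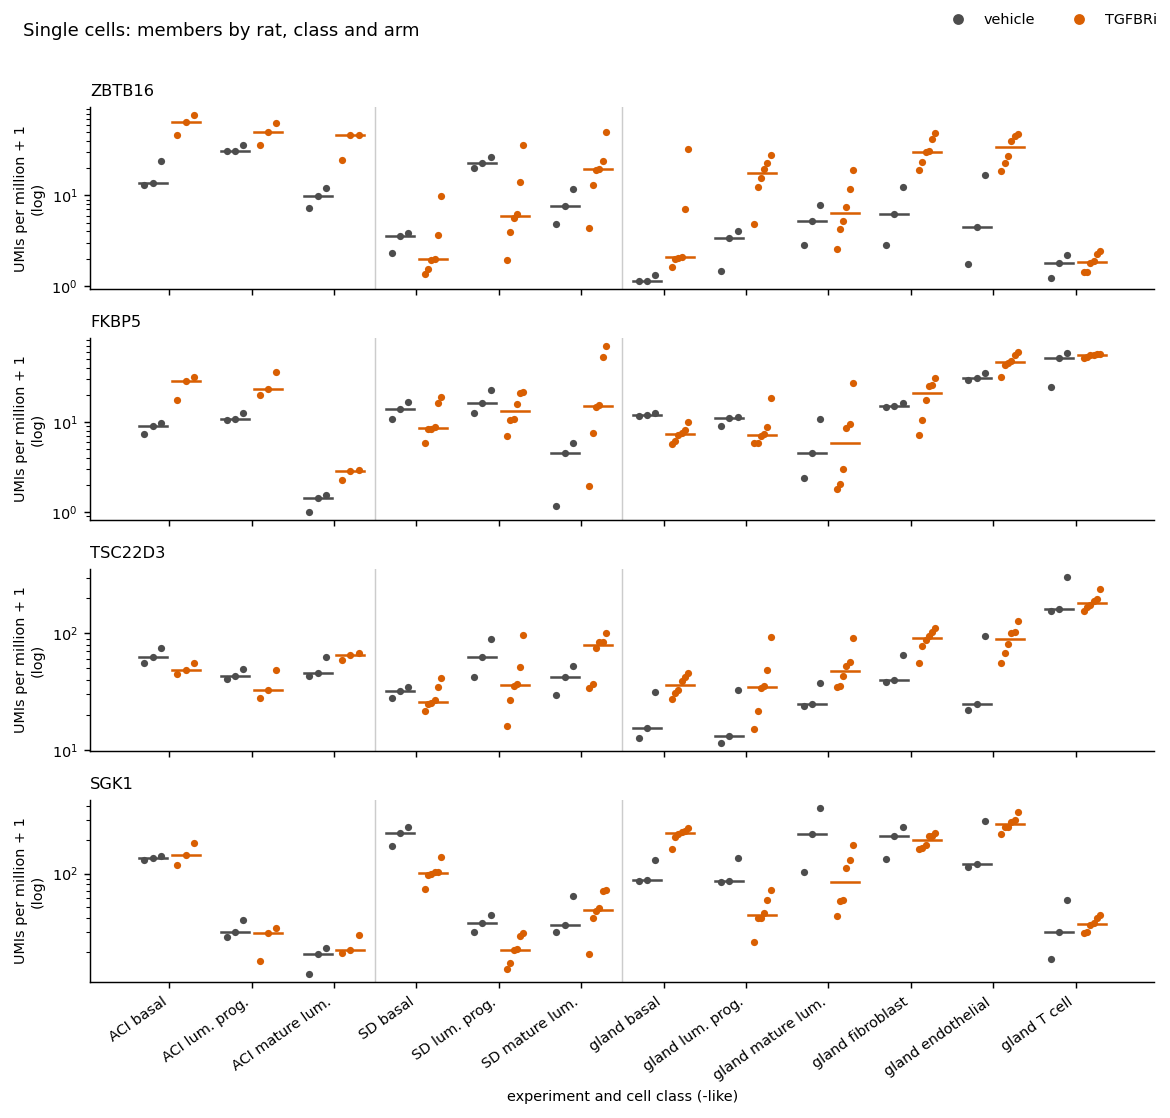
UMI CPM of ZBTB16, FKBP5, TSC22D3 and SGK1 by class, experiment and arm, 1 point per rat, vehicle in grey and TGFBRi in orange. ZBTB16 of TGFBRi rats lies above that of vehicle rats in sorted ACI basal-like and mature luminal-like cells and in whole-gland fibroblast-like, endothelial-like and Schwann cell-like cells.

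Rats of the same group also differed from each other, and it was asked whether a rat above its group in one fraction was above it in another. Of 24 relations (8 members by 3 pairs of fractions), 3 passed, all between basal and luminal cells of 51 rats. Of all 11227 genes 30.4% had an r between basal and luminal cells at least as high as the lowest of these 3, and the median r was 0.352 over the members and 0.321 over all genes, so that the 3 of 8 lay near the background. Pearson's r of the deviations from the group mean was 0.542 for ZBTB16 (Spearman's rho 0.448), 0.468 for SGK1 (rho 0.494) and 0.457 for FKBP5 (rho 0.498), each with an adjusted p of 0.0343 (two-sided permutation test within groups, raw p of 0.00429, 0.00295 and 0.00418). Without the 2 rats farthest from the median, r was 0.472, 0.427 and 0.447. Within experiments r of FKBP5 was 0.576 in young ACI (18 rats), 0.794 in young SD (8), 0.522 in adult ACI (16) and −0.262 in NMU-treated rats (9), so that it did not hold in the last. For ZBTB16 the within-experiment r was 0.587, 0.813, −0.308 and 0.636 in the same order and so did not hold in adult ACI rats. None of the 3 passed without the young ACI rats of day 0, and no member passed between epithelium and CD45+ cells.

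Within a fraction 23 of 84 pairs of members passed a permutation test, 8 of 28 in basal, 5 of 28 in luminal and 10 of 28 in CD45+ cells. An r at least as high as the lowest that passed was found in 11.9%, 9.84% and 9.58% of all pairs of genes, which share depth and cell makeup as the members do, and the part of these was not tested. FKBP5 and ZBTB16 varied together in all 3 fractions, with r of 0.522 in basal (rho 0.575, adjusted p = 0.00304), 0.469 in luminal (rho 0.373, adjusted p = 0.0225) and 0.472 in CD45+ cells (rho 0.548, adjusted p = 0.00112) by the permutation test over 51, 68 and 65 rats. Without the 2 farthest rats r was 0.509, 0.321 and 0.523, and it was negative in luminal cells of NMU-treated (−0.394) and in CD45+ cells of E2-experiment rats (−0.0731). SGK1 and KLF9 also passed in all 3 fractions. The receptor went with its feedback gene in CD45+ cells, with r of 0.748 for NR3C1 and FKBP5 (rho 0.674, adjusted p = 0.00028, permutation test). No pair passed among vehicle rats alone, of which there were 24 to 32 per fraction.

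Across the 59 group means of the bulk tables the genes most like each member, by Pearson's r of log2 levels among 8982 genes, are given as a description. They were FOSB (0.778) and FOS (0.765) for ZBTB16, CSNK1G3 (0.922) for NR3C1, BAIAP3 (0.902) for TSC22D3, NXPE3 (0.794) for FKBP5, POU3F1 (0.819) for SGK1, DNAJA4 (0.891) for KLF9 and UBE2L6 (0.811) for HSD11B1. For KLF15, over 57 groups and 9109 genes, DNM3 came first (0.653). The group means share rats, depth and scaling.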

How the data were processed

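Bulk RNA-seq of sorted cells and 10x single-cell RNA-seq were deposited. The authors aligned bulk reads to rn6 with STAR 2.5.1b, counted them with HTSeq, per the methods and the submitters' processing notes, and deposited DESeq2-normalized read counts, a signal in which each count is divided by its sample's size factor. The deposited single-cell files hold UMI counts per gene and cell from Cell Ranger 4.0.0 or 7.0.0. Whole reads could be recovered from the normalized counts (100% of 2526805 values within a tolerance of 0.001). In the adult and E2 experiments 23.08% to 42.5% of reads were in rows that name no gene, which were left out.

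Because the deposited values are normalized, limma 3.58.1 (trend, robust; R 4.3.3) was run on log2(value + 1) in place of a count test, in 1 model per fraction and data set over genes summing to at least 10, with Benjamini-Hochberg adjustment and a threshold of 0.05. The 4 parts of 1 E2 rat were averaged. Counts of member tests at an unadjusted p under 0.05 have no share over all genes beside them and are a description. On the recovered reads edgeR 4.0.16 called 2070 genes over the treatment comparisons and 166 over the day comparisons in vehicle rats. Single cells were clustered (2000 variable genes, 30 components, 20 neighbours, Leiden resolution 0.8) without the members and list genes. Of 87 clusters 32 stayed unnamed (13.3% of cells). UMIs were summed per rat and class with at least 10 cells and tested with edgeR's quasi-likelihood test at 0.1. No doublet caller was run, and an alternative left out the 6% of cells with most UMIs. Under it 38 member calls held and 2 were lost. These were SGK1 in B cell-like and lymphatic endothelial-like cells (edgeR, adjusted p of 0.102 and 0.117). Relations between rats used 100000 permutations within groups.

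The tests were tried on simulated data. In luminal vehicle cells of day 7 against day 0 (14868 genes) 2% of genes changed 2-fold and 42% of genes changed 4-fold were called, in adult luminal parous treatment (14029 genes) 25% and 83%, and in sorted SD basal cells (13871 genes) 39% and 95%. Basal and luminal cells shared rats, and their deviations correlated with a median of 0.467 over 18 ACI and 0.131 over 17 SD rats. The named genes were the 8 members, and of each list at most 4 genes called with the lowest adjusted p. Members and lists were chosen with earlier results of these data known. Counting error is only a part of the spread between rats. The authors' own fold changes were not used. In the labels 1 rat was called treated in one field and control in its title, and was used as vehicle. In 1 CD45+ sample day 9 and day 7 were both given, and day 7 was used.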

Additional observations from a re-analysis of the deposited data

Results flagged for a closer look

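In groups of 4 or 6 rats, 258 sets of member values were looked at for a rat far from the others of its group, and 15 were found. Chance alone picks about 1 in 20 such groups. In basal cells of adult parous rats, TSC22D3 was at 15852 normalized counts in 1 TGFBRi rat (the others at 5249 to 5427) and at 876 in 1 vehicle rat (the others at 1571 to 1726), and SGK1 was at 8257 in 1 TGFBRi rat (the others at 19616 to 23357). In luminal cells of adult parous rats SGK1 was at 5036 in 1 vehicle rat (others 6276 to 6540) and KLF15 at 36.5 in 1 TGFBRi rat (others 69.96 to 75.1). KLF15 was also at 20.1 in 1 vehicle rat without E2 in CD45+ cells (others 0), at 1.32 in 1 vehicle rat without E2 in luminal cells (others 62.7 to 100) and at 1.20 in 1 young SD luminal TGFBRi rat (others 76.5 to 148). ZBTB16 was at 58.1 in 1 tumor-free TGFBRi rat with E2 in CD45+ cells (others 136 to 142), and KLF9 at 385 in 1 young SD luminal TGFBRi rat (others 594 to 623). HSD11B1 was at 942 in CD45+ cells of 1 adult virgin vehicle rat (others 314 to 359), at 1.05 in basal cells of 1 adult virgin TGFBRi rat (others 66.8 to 110) and at 98.8 in CD45+ cells of 1 young SD TGFBRi rat (others 236 to 277). The labels call the young SD rats low for KLF15 and KLF9 strong responders and the one low for HSD11B1 a weak responder. In single cells FKBP5 was at 17.3 UMI CPM in whole-gland luminal progenitor-like cells of 1 TGFBRi rat (others 4.84 to 7.71), and TSC22D3 at 116 in the cluster led by CRIP1, SPARCL1, S100A4 and DES of 1 sorted SD TGFBRi rat (others 213 to 271).

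Of 196 pairs of treatment contrasts, 6 had all rats of one contrast on one side of vehicle and all rats of the other on the opposite side. The share of such pairs over all genes was not counted, so that the 6 are a description. In basal cells of young ACI rats the log2 difference of SGK1 was 0.62 on day 7 and −0.49 on day 14, and that of KLF15 was 1.83 on day 0 and −2.91 on day 14. None of the 72 interaction tests of members between days or by parity passed by limma (lowest adjusted p = 0.139). In basal-like single cells FKBP5 was higher with TGFBRi in sorted ACI (1.95) and lower in whole SD glands (−0.78), SGK1 was lower in sorted SD (−0.69) and higher in whole SD glands (1.17), and KLF9 was lower in sorted SD (−0.76) but higher in sorted ACI (0.51) and in whole SD glands (0.87). These 4 differences between experiments were not tested. Per the study's methods the sorted and whole-gland sets also differed in library kit. Only the sorted cells were filtered on reads of keratins and PTPRC.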

How the results depend on the processing

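Under the alternatives the counts of members called moved as follows. Treatment gave 2 calls in bulk, 1 with no filter on low values, 11 with DESeq2 on the recovered reads, and 1 with a replicate block by animal tag, whose numbers did not pair the adult rats (3 of 21 pairs above 0.1, median −0.018). The day comparisons in vehicle rats gave 6, 4 with edgeR (none in basal cells), 16 with DESeq2, and 13 in TGFBRi rats (an alternative added after seeing the data). Parity gave 2, 3 with DESeq2, and 1 (ZBTB16 in basal cells) with edgeR or with only the groups compared. E2 gave 5, 3 with edgeR or with only the groups compared, and with DESeq2 the same 5 and ZBTB16 in CD45+ cells. The replicate block by rat gave 20 calls between basal and luminal cells against 16, with 4 gained and 0 lost. Relations across fractions gave 3, 1 on log2 RPM, 0 without the young ACI rats of day 0 and 0 without TGFBRi rats, and pairs of members gave 23, of which 16 held without the young ACI rats of day 0, 20 on log2 RPM (30 pairs called) and 0 without TGFBRi rats. Leaving out 1 rat at a time gave 1 to 3 calls for treatment, 3 to 8 for day, 1 to 3 for parity, 0 to 6 for E2, 14 to 16 between fractions and 31 to 46 in single cells. The genes called over all comparisons were 2626 for treatment (DESeq2 9270), 218 for day (DESeq2 2990, mean value of at least 10 397, only the groups compared 877), 32 for the day interaction (1411, 56 and 7), 6998 for day in TGFBRi rats (DESeq2 11914, only the groups compared 2236), 1631 for parity (only the groups compared 399), 140 for the parity interaction (DESeq2 588, replicate block 0) and 1614 for E2 (DESeq2 3548, parts of 1 rat as separate samples 3013). The median of all genes moved by over 0.1 in 11 comparisons with edgeR and 12 with DESeq2 (by at most 0.214), such as treatment in adult virgin basal cells, from −0.25 to −0.09 with DESeq2. The causes were not tested. None of the 31 bulk and 40 single-cell member values called changed direction under the alternatives run for them. KLF15 was at 0 to a few normalized counts in some groups, where single reads move its values, and 3 rats per arm left most changes of 2-fold uncalled in simulated luminal data.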

Other observations

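Some partners of the receptor and an enzyme that bears on its ligand were called in the same comparisons. At day 14 against day 0 in basal cells of the TGFBRi arm the co-chaperones FKBP4 (log2 change 1.22), PTGES3 (1.16) and STIP1 (0.92) were higher and HSPA8 (−1.07) was lower by limma. These were 4 of 9 partners, in a comparison where 32% of all genes were called. H6PD, which supplies HSD11B1 with its cofactor, was lower there (−3.001, limma, adjusted p = 0.0238) and higher in parous than in virgin TGFBRi rats in adult basal cells (3.73, limma, adjusted p = 0.0301; 12.1% of genes called), where HSD11B1 was higher too. NR3C2, the mineralocorticoid receptor, was lower in basal than in luminal cells of vehicle ACI rats at day 7 (−3.26, limma, adjusted p = 0.00568) and day 14 (−2.77, limma, adjusted p = 0.0162), and was higher with E2 in CD45+ cells of TGFBRi rats (2.27, limma, adjusted p = 0.0237).

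The sorted SD cluster led by CRIP1, SPARCL1, S100A4 and DES is given by its leading genes and not by a cell type, since DES and PLN among its 10 leading genes are smooth muscle genes. Its 357 cells in the 7 rats with at least 10 of them were too few in vehicle rats for a test between arms. KLF9 had a median over rats of 402 UMI CPM (345 to 624) and TSC22D3 of 260 (116 to 286). HSD11B1 had 3 UMIs in all these cells.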
